A study of Homo sapiens with 6 samples.

Results

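Small RNA silencing lowers the output of messenger RNAs that pair with a short guide RNA. In the nucleus the Microprocessor, made of the RNase DROSHA and its RNA-binding partner DGCR8, cuts hairpins out of primary transcripts, and XPO5 carries them to the cytoplasm. There DICER1, with its partner TARBP2, trims them to short duplexes, an argonaute keeps 1 strand as its guide, and a TNRC6 scaffold protein bound to the argonaute recruits the enzymes that shorten the poly(A) tail of the target. A transfected siRNA enters the same route at the argonaute step, so both groups of cells compared here had been given a substrate of this machinery. The 10 genes DROSHA, DGCR8, XPO5, DICER1, TARBP2, AGO1, AGO2, AGO3, AGO4 and TNRC6A were taken from the 62754 genes of the deposited count table by name. All 10 were found, and none fell under the limit of 10 counts in 3 libraries.

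HK-2, a proximal tubule epithelial line of human kidney, was exposed to Cisplatin in all samples. The cells had received a negative control siRNA (CP+siNC, 3 libraries) or siRNA directed at NAT10 (CP+siNAT10, 3 libraries). NAT10 encodes an RNA and protein acetyltransferase. The labels give no dose or time, name a single cell line and do not say whether the libraries of a group came from separate cultures, so the p-values measure the spread between these libraries, which may be technical. The libraries were made from messenger RNA with a stranded kit that adds molecular identifiers, and the mature miRNAs themselves were not measured. Total counts were 19321665, 21602988 and 19464027 in CP+siNC and 20793709, 21531774 and 25192736 in CP+siNAT10.

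The cell type named in the labels was looked up in its defining genes. Of 11 proximal tubule markers 7 were too low to be tested, among them the endocytic receptor LRP2 and the anion transporter SLC22A6, both at or near 0, while GGT1 was measured at a mean of 30.3 CPM (counts per 1000000, with library sizes scaled by TMM, the trimmed mean method of edgeR). Of 9 renal epithelial genes 7 were tested, and the keratin gene KRT8 was the most abundant at 1452 CPM. These markers moved in both directions. Of the 4 proximal tubule markers tested, SLC5A2 was higher, GGT1 was lower and 2 were not called, and their list summed to 46.0, 46.2 and 44.3 CPM in CP+siNC and to 42.8, 40.2 and 42.7 CPM in CP+siNAT10. Of the renal epithelial genes 2 were higher, 2 were lower and 3 were not called, and this list summed to 1869, 1880.4 and 1833 CPM in CP+siNC and to 1794, 1783 and 1813 CPM in CP+siNAT10. The 4 endothelial, 2 podocyte and 4 distal nephron markers were all too low to be tested. The summed level of the 4 leukocyte markers was 209.7, 199 and 216 CPM in CP+siNC and 289, 266 and 269 CPM in CP+siNAT10. Of these markers 3 were tested, 2 were higher, CD68 and PTPRC, and 0 were lower. Nearly all of the sum was CD68, a lysosomal gene that epithelial cells also transcribe, and the leukocyte gene PTPRC was at 0.418 and 0.824 CPM. Of the 5 fibroblast markers COL1A1 rose from 10.5 to 13.6 CPM, LUM was at 11.2 and 11.5 CPM, and DCN was near 0. The part of these markers in the results was not tested.

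The targeted gene was examined first. NAT10 (ENSG00000135372) was measured at 75.8, 71.4 and 73.2 CPM in CP+siNC and at 41.3, 40.5 and 42.4 CPM in CP+siNAT10. The groups did not overlap, and the lower level stood in the libraries labelled with NAT10 siRNA. The log2 fold change was -0.82 (standard error 0.0426, adjusted p = 2.79e-15). Unless another fit is named beside it, an adjusted p given here comes from the quasi-likelihood test of edgeR, adjusted after Benjamini-Hochberg over 19874 tested genes; where a library was left out, the same test was run on the genes that passed the filter without it. A lower value in bulk RNA can come from fewer cells that express a gene or from less RNA per cell, and these cannot be told apart.

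Steps of the route differed in direction. The genes for processing, export and dicing and the scaffold TNRC6A were higher in CP+siNAT10, except DGCR8, which was not called, whereas AGO1 and AGO3 were lower, AGO2 was not called and AGO4 was higher. At an adjusted p under 0.05, 8 of the 10 members were called, 6 of them higher and 2 lower. Among all tested genes 44.1% were called, 21.8% higher and 22.3% lower. Among the 7887 tested genes whose mean lay within the members' own range, from 13.8 to 191 CPM, 62.4% were called, 31.8% higher and 30.6% lower. The libraries of the groups did not overlap for 7 members that were higher and 2 that were lower with NAT10 siRNA, against 25.7% of tested genes in the higher and 25.7% in the lower direction. Not a single member passed a log2 fold change of 1 in size, a limit passed by 2.33% of tested genes together with the adjusted p. The median log2 fold change of the members was 0.17, against 0.0070 over all tested genes. These counts describe the list and were not tested as a list. DESeq2 called 5 members and 33.7% of all tested genes, and a glmTreat test for changes beyond 1.2-fold called TNRC6A alone among the members and 14.6% of all tested genes.

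**Figure D1:**
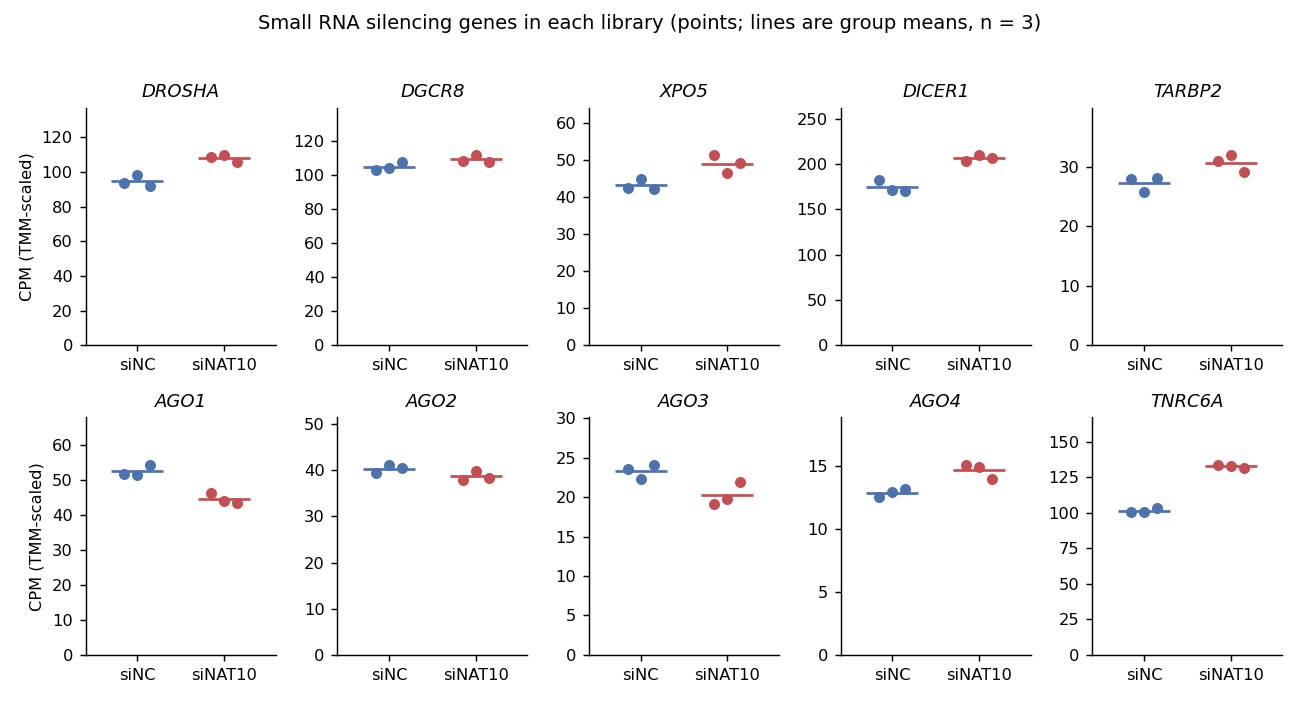
CPM (counts per 1000000 on TMM-scaled library sizes) of the 10 members in each library, as points, with the group mean as a line (n = 3 per group); every axis starts at 0. TNRC6A has the widest gap between groups, from 103 CPM in the highest CP+siNC library to 131 CPM in the lowest CP+siNAT10 library, and AGO2 overlaps.

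DROSHA (ENSG00000113360, chromosome 5 from 31400494 to 31532196 on GRCh38), the RNase that makes the first cut, was measured at 94.0, 98.5 and 91.7 CPM in CP+siNC. In CP+siNAT10 it was at 108.6, 109.7 and 106 CPM, above every control library. The log2 fold change was 0.19 (standard error 0.0372, adjusted p = 0.000117). DGCR8 (ENSG00000128191, chromosome 22 from 20080221 to 20111872), which anchors the hairpin for DROSHA, was at 103, 104 and 107.3 CPM in CP+siNC and at 108.1, 111.5 and 107.8 CPM in CP+siNAT10. All CP+siNAT10 libraries were above, the nearest by less than the spread within a group, and the difference did not pass the test (log2 fold change 0.06, 95% interval -0.015 to 0.13, adjusted p = 0.195). DROSHA and DGCR8 act as a complex, and whether their fold changes differed from each other was not tested.

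An early exon of DGCR8 contains hairpins that the Microprocessor can cut out of its own messenger RNA, a known feedback on its level. The deposited table lists 2 miRNA genes on the same strand inside the gene, MIR3618 and MIR1306. Their mature sequences are shown because the hairpins lie within DGCR8 itself; from which transcript the reads in their rows came was not tested. The seed, bases 2 to 8, is in capitals, and the sequences are from RefSeq on GRCh38.p14.
miR-3618, chr22:20085797-20085818, + strand: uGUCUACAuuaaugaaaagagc
miR-1306-5p, chr22:20086072-20086093, + strand: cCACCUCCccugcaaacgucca
miR-1306-3p, chr22:20086112-20086129, + strand: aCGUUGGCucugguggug
The row of MIR3618 held 29, 38 and 18 counts in CP+siNC and 36, 36 and 35 counts in CP+siNAT10. The groups overlapped, and its log2 fold change of 0.14 did not pass the test (adjusted p = 0.668). MIR1306 held 3, 9 and 6 counts in CP+siNC and 9, 7 and 4 counts in CP+siNAT10, too few to compare.

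XPO5 (ENSG00000124571, chromosome 6 from 43522334 to 43576038), the exportin of hairpin precursors, was at 42.5, 44.8 and 42.3 CPM in CP+siNC and at 51.3, 46.7 and 49.3 CPM in CP+siNAT10. The CP+siNAT10 libraries lay above the controls, and the log2 fold change was 0.18 (standard error 0.0468, adjusted p = 0.00204). XPO5 shares bases with POLR1C on the opposite strand, whose row held 103% of the count of XPO5 and had a log2 fold change of 0.04 (adjusted p = 0.59). Use of strand in counting was not given in the sources used here, so reads of such a pair may not have been kept apart. RAN, the GTPase that binds XPO5 with its cargo, went the other way. It was measured at 399, 401 and 414 CPM in CP+siNC and at 366, 350 and 362 CPM in CP+siNAT10, with no overlap. Its log2 fold change was -0.17 (adjusted p = 7.19e-05). RAN serves all importins and exportins of its class, not XPO5 alone.

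DICER1 (ENSG00000100697, chromosome 14 from 95086228 to 95158010), the RNase that removes the loop, was at 183, 171 and 170.15 CPM in CP+siNC and at 204, 209.8 and 207 CPM in CP+siNAT10. Every CP+siNAT10 library was above every control, and the log2 fold change was 0.24 (standard error 0.0347, adjusted p = 1.26e-06). With offsets for gene length it was 0.12 (adjusted p = 0.00683). TARBP2 (ENSG00000139546, chromosome 12 from 53500921 to 53506396), a double-stranded RNA-binding partner of DICER1, was at 27.99, 25.7 and 28.1 CPM in CP+siNC and at 30.9, 31.9 and 29.0 CPM in CP+siNAT10. The groups did not overlap, with a gap smaller than the spread within either group. The log2 fold change was 0.17 (standard error 0.0546, adjusted p = 0.0144), and the adjusted p was 0.123 once CP+siNC replicate 2 was left out and 0.0796 once CP+siNAT10 replicate 2 was, and with DESeq2 it was 0.0824. An antisense gene, ENSG00000270175, lies over TARBP2 with 53.2% of its count and a log2 fold change of 0.21 (adjusted p = 0.0196). PRKRA, the other double-stranded RNA-binding partner of DICER1, was at 35.1, 35.9 and 38.3 CPM in CP+siNC and at 36.0, 31.7 and 31.5 CPM in CP+siNAT10. These groups overlapped, and the log2 fold change of -0.14 passed the test narrowly (adjusted p = 0.0359), and with offsets for gene length it was -0.22. Its call was lost when CP+siNC replicate 3 or CP+siNAT10 replicate 2 or 3 was left out, with an adjusted p of up to 0.172, and also with library size scaling (adjusted p = 0.14), without a filter (0.0724), with DESeq2 (0.119) and with glmTreat. CHROMR, on the opposite strand, shares bases with PRKRA and held 42.5% of its count, with a log2 fold change of -0.05 (adjusted p = 0.65).

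**Figure D2:**
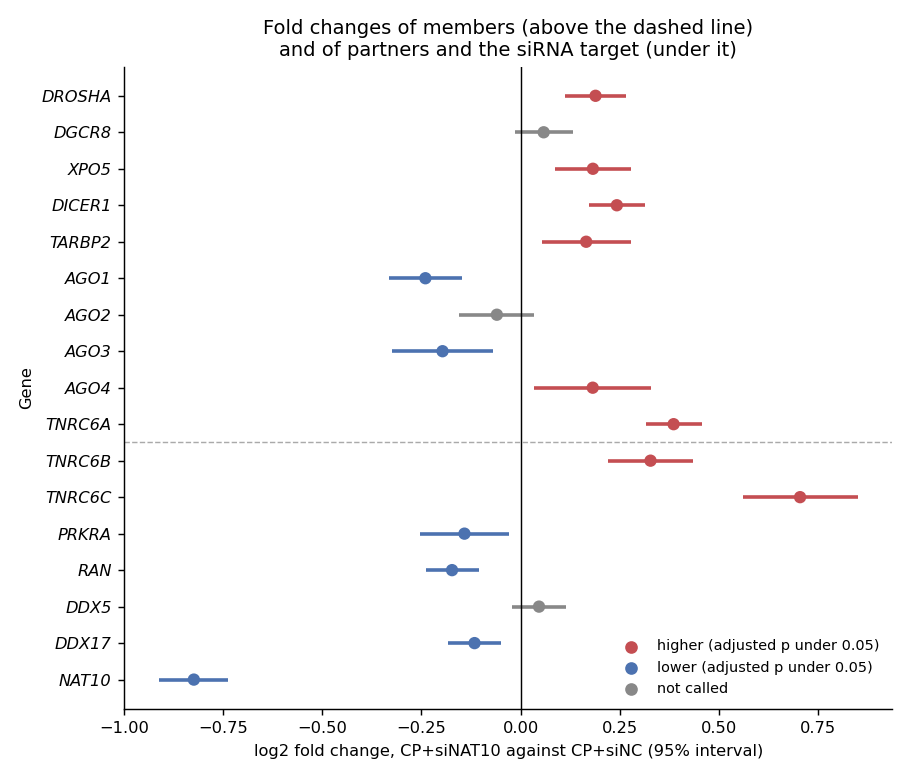
Log2 fold change of CP+siNAT10 against CP+siNC with its 95% interval for the 10 members, above the dashed line, and for their paralogs, partners and NAT10, under it; red and blue mark genes higher and lower at an adjusted p under 0.05 and grey marks genes not called. AGO1 at -0.24 and AGO3 at -0.20 stand to the left of AGO4 at 0.18, and TNRC6A at 0.39, TNRC6B at 0.33 and TNRC6C at 0.71 stand together on the right.

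Argonautes hold the guide strand. AGO2 is the member that can itself cut a paired target, which is how an siRNA destroys its messenger RNA, and AGO1, AGO3 and AGO4 act mainly through TNRC6 proteins. AGO1 (ENSG00000092847) was at 51.9, 51.6 and 54.4 CPM in CP+siNC and at 46.2, 44.0 and 43.5 CPM in CP+siNAT10. The CP+siNAT10 libraries were all below the controls, and the log2 fold change was -0.24 (standard error 0.0445, adjusted p = 5.68e-05). AGO3 (ENSG00000126070) was at 23.6, 22.4 and 24.1 CPM in CP+siNC and at 19.1, 19.8 and 21.9 CPM in CP+siNAT10. Here the groups were separated by less than their own spread, and the log2 fold change was -0.20 (adjusted p = 0.0107, standard error 0.0621). Without CP+siNAT10 replicate 1 the adjusted p of AGO3 was 0.061, and with DESeq2 it was 0.0528.

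AGO4 (ENSG00000134698) had the lowest CPM of the members. Its values were 12.6, 12.9 and 13.2 CPM in CP+siNC and 15.1, 14.9 and 14.004 CPM in CP+siNAT10. The CP+siNAT10 libraries were above the controls, and the log2 fold change was 0.18 (standard error 0.0717, adjusted p = 0.0399). The call of AGO4 was lost with DESeq2 (adjusted p = 0.171) and without a filter on low counts (0.0642), and among the fits with a library left out it was kept only without CP+siNAT10 replicate 3, and in the others the adjusted p was between 0.0632 and 0.122. AGO2 (ENSG00000123908) was at 39.5, 41.2 and 40.4 CPM in CP+siNC and at 37.998, 39.9 and 38.4 CPM in CP+siNAT10. The groups overlapped, and the log2 fold change was -0.06 with a 95% interval from -0.15 to 0.04 (adjusted p = 0.317). With offsets for gene length, AGO2 was called at -0.16 (adjusted p = 0.00471), AGO4 was not called (adjusted p = 0.107) and AGO3 was at -0.32 (adjusted p = 0.000114). The argonautes are paralogs, and how the authors treated reads that match more than 1 gene was not given in the sources used here. The 4 argonautes together summed to 128, 128 and 132 CPM in CP+siNC and to 118, 119 and 118 CPM in CP+siNAT10.

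AGO4, AGO1 and AGO3 lie next to each other on chromosome 1, in this order and on the same strand. AGO4 runs from 35808016 to 35854758, AGO1 begins 15049 bases further on and runs from 35869808 to 35921177, and AGO3 begins 9540 bases after AGO1 and runs from 35930718 to 36056239. In the test used here AGO4 was called higher and AGO1 and AGO3 lower; the calls of AGO4 and AGO3, but not that of AGO1, were lost with DESeq2. The promoter windows of AGO4 and AGO1 are shown because their fold changes had opposite signs, and that of TNRC6A because its p was the smallest of the members. Of the 10 members with TNRC6B and TNRC6C, 11 of 12 genes, all but AGO2, matched the RefSeq promoter table on GRCh38.p14, with 20 windows in all, each 300 bases long and placed around a start site. Capitals mark the GC box GGGCGG and the CCAAT box CCAAT, each searched on both strands, as CCGCCC and ATTGG on the strand shown; the motifs do not overlap.
AGO4, chr1:35807766-35808065, + strand: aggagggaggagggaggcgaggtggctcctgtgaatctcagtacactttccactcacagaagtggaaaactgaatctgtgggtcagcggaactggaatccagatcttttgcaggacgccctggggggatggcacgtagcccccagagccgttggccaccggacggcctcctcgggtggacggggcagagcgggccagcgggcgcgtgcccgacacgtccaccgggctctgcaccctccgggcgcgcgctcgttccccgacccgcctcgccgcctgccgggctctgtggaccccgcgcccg
AGO1, chr1:35882959-35883258, + strand: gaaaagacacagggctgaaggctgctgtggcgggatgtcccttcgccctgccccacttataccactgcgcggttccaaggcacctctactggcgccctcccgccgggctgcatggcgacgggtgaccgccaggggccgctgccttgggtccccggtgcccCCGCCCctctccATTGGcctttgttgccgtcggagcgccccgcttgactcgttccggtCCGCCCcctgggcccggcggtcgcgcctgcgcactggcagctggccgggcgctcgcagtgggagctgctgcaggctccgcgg
TNRC6A, chr16:24729401-24729700, + strand: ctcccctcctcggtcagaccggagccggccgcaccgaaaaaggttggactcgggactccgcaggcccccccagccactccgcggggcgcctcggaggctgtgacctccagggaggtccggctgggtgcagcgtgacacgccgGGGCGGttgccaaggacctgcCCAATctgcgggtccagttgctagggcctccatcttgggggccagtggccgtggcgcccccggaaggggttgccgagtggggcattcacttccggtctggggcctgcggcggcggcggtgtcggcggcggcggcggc
The AGO1 window held 2 GC boxes and 1 CCAAT box, the TNRC6A window 1 of each, and the AGO4 window 0 of either. Of the windows not shown, those of AGO3, which was lower, and XPO5, which was higher, each held 2 GC boxes and 0 CCAAT boxes. That of DROSHA, which was higher, held 2 and 3. A link between the boxes and the fold changes was not tested. Over all 35116 promoter windows of this length, 45% held a GC box and 34.6% a CCAAT box. These are matches of letters, not sites of binding. The windows of AGO1 and TNRC6A lie inside the spans that the deposited table gives for the genes, so transcripts from other starts were also counted.

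TNRC6A (ENSG00000090905, chromosome 16 from 24610209 to 24827632), the scaffold that links argonautes to the deadenylases, had the largest fold change of the members. It was measured at 100.5, 100.8 and 103 CPM in CP+siNC and at 134, 133 and 131 CPM in CP+siNAT10. The gap between the groups was many times the spread within them, and the log2 fold change was 0.39 (standard error 0.0346, adjusted p = 2.82e-10). Its paralogs rose as well. TNRC6B was at 27.1, 25.9 and 27.4 CPM in CP+siNC and at 32.5, 35.3 and 33.1 CPM in CP+siNAT10 (log2 fold change 0.33, adjusted p = 6.84e-06, or 0.21 with offsets for gene length). TNRC6C was at 11.8, 11.02 and 12.0 CPM in CP+siNC and at 17.9, 19.3 and 19.4 CPM in CP+siNAT10 (log2 fold change 0.71, adjusted p = 2.53e-09). For each of these 3 genes the groups did not overlap, and none changed direction under RLE, upper quartile or library size scaling. Their sum went from 139, 138 and 143 CPM to 184, 188 and 184 CPM, while the argonaute sum was lower.

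The genes whose log2 CPM over the 6 libraries was most like that of TNRC6A were DLG5 with a Pearson r of 0.9995, EPDR1 with 0.9993 and UBTD2 with 0.9993. This is a description, since 1583 of the 12303 genes compared had an r over 0.95 and the libraries fall into the same groups for all of them.

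Levels of different genes were compared per gene length, as CPM divided by gene length in kilobases (RPKM), with the length in the deposited table, which covers all annotated exons of a gene. In CP+siNC the Microprocessor genes stood highest, DGCR8 at 14.3 and DROSHA at 12.2 RPKM. DICER1 at 7.89 and TNRC6A at 7.83 RPKM followed and overlapped each other, and TARBP2 at 6.67 and XPO5 at 5.10 RPKM came next. The argonautes were lower, AGO1 at 3.75, AGO2 at 2.55, AGO4 at 1.74 and AGO3 at 1.10 RPKM, each separated from its neighbour in all libraries. In CP+siNAT10 the order was the same except that TNRC6A, at 10.2 RPKM, stood above DICER1, at 9.34 RPKM, without overlap. The order depends on the division by gene length. Without it DICER1 stood highest of the members in CP+siNC, at 175 CPM, against 105 CPM for DGCR8 and 94.7 CPM for DROSHA.

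**Figure D3:**
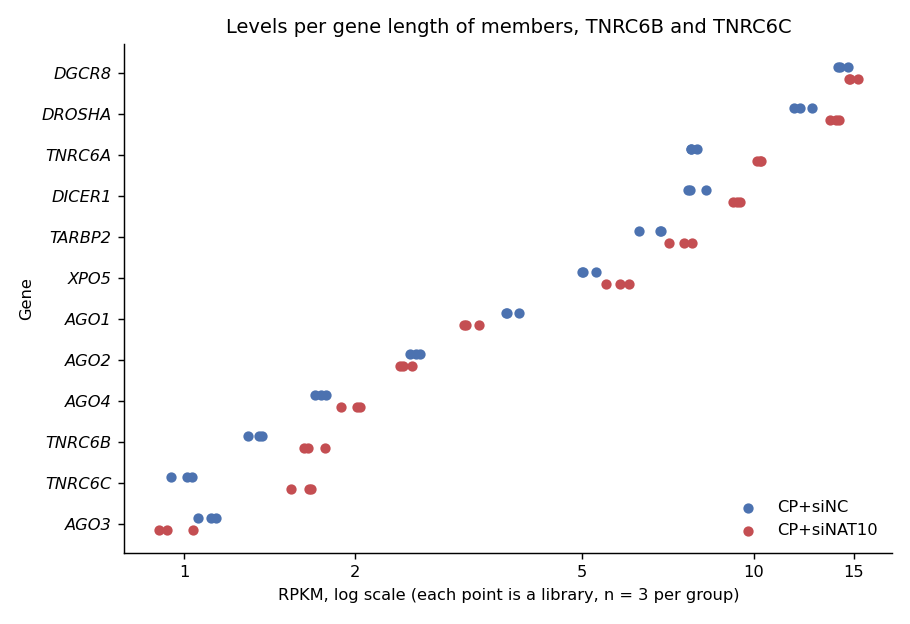
RPKM (CPM per kilobase of deposited gene length, log axis) of the 10 members, TNRC6B and TNRC6C, with a point for each library and colours for the groups (n = 3 per group). The argonautes lie at or under 3.87 RPKM, and DGCR8 and DROSHA lie highest in both groups.

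The makeup of the argonaute family moved accordingly. Of the summed RPKM of the 4 argonautes, AGO1 made up 41.0% ± 0.484 (SD, n = 3) in CP+siNC and 37.1% ± 0.918 in CP+siNAT10, without overlap. The share of AGO4 went from 19.03% ± 0.188 to 23.1% ± 0.666, also without overlap. This share depends on the division by gene length, and without it AGO4 made up 9.99% of the sum in CP+siNC. AGO2 made up 27.9% and 28.6%, and AGO3 12.1% and 11.2%, with overlapping groups. Within the TNRC6 family TNRC6A held 77.0% of the summed RPKM in CP+siNC and 75.6% in CP+siNAT10, and TNRC6C went from 9.81% ± 0.298 to 12.0% ± 0.515. The shares are descriptions and were not tested.

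Cofactors of the Microprocessor comprise RNA helicases and RNA-binding proteins that favour or hinder the first cut. Of 14 such genes, all tested, 5 were higher, 3 lower and 6 not called, with a median log2 fold change of 0.020. The called share was 57.1%, against 44.1% of all tested genes and 62.4% of those within the members' range of levels. All of these cofactors but ERH, at a mean of 76.7 CPM, lay above that range. The helicase DDX17 is named in the title of the study, which reported less DDX17 protein after NAT10 knockdown. Only RNA was measured here. The RNA of DDX17 was at 246, 247 and 243 CPM in CP+siNC and at 223, 232 and 225 CPM in CP+siNAT10. The groups did not overlap, and the log2 fold change was -0.12 (standard error 0.0325, adjusted p = 0.00439), or -0.18 with offsets for gene length. Its paralog DDX5 was not called, with a log2 fold change of 0.05 (adjusted p = 0.277) and overlapping groups. It was called with library size scaling (log2 fold change 0.08, adjusted p = 0.0208), and with offsets for gene length its log2 fold change was -0.01 (adjusted p = 0.762). ADAR, which edits double-stranded RNA, rose by a log2 fold change of 0.19 (adjusted p = 2.17e-05), or 0.10 with offsets for gene length. HNRNPA1, which binds the loops of some primary miRNAs, had a log2 fold change of -0.16 (adjusted p = 0.000283). Of these cofactors only DDX5 and the other uncalled genes had groups that overlapped.

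Other factors tail, degrade or protect hairpin precursors. Of 9 such genes 8 were tested, 1 was higher, 3 were lower and 4 were not called, with a median of -0.045. The called share of those tested was 50%, against 44.1% of all tested genes. TSNAX and TSN, which together form a nuclease that removes the discarded strand in some settings, fell with log2 fold changes of -0.66 (adjusted p = 2.39e-13) and -0.36 (adjusted p = 1.48e-07). TSNAX went from 79.4, 78.2 and 75.3 CPM in CP+siNC to 51.2, 48.7 and 47.5 CPM in CP+siNAT10, without overlap. A readthrough gene on the same strand, TSNAX-DISC1, shares bases with it, held 31.6% of its count and had a log2 fold change of -0.65. On the opposite strand ENSG00000287856 held 51.5% of its count and had a log2 fold change of -0.07 (adjusted p = 0.314). TUT7, a uridylyltransferase of precursors, had a log2 fold change of -0.13 (adjusted p = 0.00493).

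Loading of a duplex into an argonaute uses the HSP70 and HSP90 chaperones. Of 12 genes in this list 3 were higher, 6 lower and 3 not called, with a median of -0.10. The called share was 75%, against 44.1% of all tested genes and 62.4% of those within the members' range of levels. This difference was not tested. All genes of the list but FKBP5, at a mean of 90.3 CPM, lay above that range, so 62.4% is not a share at their own levels. FKBP4, an HSP90 co-chaperone, fell from 386, 387 and 384 CPM in CP+siNC to 257, 246 and 251 CPM in CP+siNAT10, without overlap (log2 fold change -0.62, adjusted p = 3.56e-15). STIP1, which joins HSP70 to HSP90, had a log2 fold change of -0.31 (adjusted p = 1.12e-08). AHSA1, which stimulates the ATPase of HSP90, had one of -0.18 (adjusted p = 4.59e-05). These proteins serve many clients besides argonautes.

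Proteins that act on argonautes moved both ways. Of 12 regulators 11 were tested, 4 were higher, 3 lower and 4 not called, with a median of 0.027. Of those tested 63.6% were called, against 44.1% of all tested genes and 62.4% of those within the members' range of levels. ANKRD52, a subunit of the phosphatase that removes phosphates from AGO2, was at 126, 126 and 123 CPM in CP+siNC and at 219.5, 221 and 218 CPM in CP+siNAT10. The libraries of a group were close together and far from the other group, and the log2 fold change was 0.81 (adjusted p = 1.76e-17, standard error 0.0330). PPP6C, another subunit of this phosphatase and chosen after its values were seen, was not called. Its groups overlapped, with a log2 fold change of -0.06 (adjusted p = 0.471). AJUBA, a LIM protein found with argonautes in P-bodies, had a log2 fold change of -0.65 (adjusted p = 9.17e-14). IPO8, an importin that binds argonautes, had a log2 fold change of -0.32 (adjusted p = 4.96e-08).

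Downstream of TNRC6, deadenylases and decapping enzymes remove the target. Of 32 genes, all tested, 13 were higher, 7 lower and 12 not called, with a median of 0.010. The called share was 62.5%, near the 62.4% of tested genes within the members' range of levels. Of all tested genes 44.1% were called. The smallest p-values of the list belonged to subunits of the CCR4-NOT complex, and the 3 with the smallest were lower. CNOT6, a catalytic deadenylase, was at 43.9, 43.7 and 41.8 CPM in CP+siNC and at 26.4, 27.1 and 26.9 CPM in CP+siNAT10 (log2 fold change -0.69, adjusted p = 2.07e-12). CNOT11, a subunit without known catalytic activity, had a log2 fold change of -0.81 (adjusted p = 2.7e-10). CNOT7, a further catalytic deadenylase, had a log2 fold change of -0.53 (adjusted p = 3.61e-10). For these subunits the groups did not overlap. The other subunits in the list were chosen after their values were seen. CNOT1 and CNOT3 were lower, with log2 fold changes of -0.10 (adjusted p = 0.0195) and -0.11 (adjusted p = 0.0174). CNOT2 and CNOT10 rose with log2 fold changes of 0.23 (adjusted p = 6.29e-05) and 0.23 (adjusted p = 0.00671), also without overlap. CNOT6L, CNOT8 and CNOT9 were not called.

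The germline route of PIWI proteins and piRNAs was mostly too low to measure. Of 14 genes 11 were too low to be tested, PIWIL1, PIWIL2 and PIWIL3 among them. Of the remaining 3 genes TDRD9, a helicase of this route, was higher and the others were not called. TDRD9 was at 30.1, 33.0 and 32.0 CPM in CP+siNC and at 46.9, 46.1 and 43.6 CPM in CP+siNAT10, without overlap (log2 fold change 0.52, adjusted p = 1.07e-09).

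Long transcripts that carry miRNA hairpins are the substrates of the Microprocessor. The table holds 84 rows named as miRNA host genes, of which 38 were tested, 4 higher, 10 lower and 24 not called, with a median of -0.081. Of those tested 36.8% were called, against 44.1% of all tested genes, 21.8% higher and 22.3% lower. The level of a host transcript is not that of its miRNA. MIR34AHG, the host of a p53-responsive miRNA, was at 6.32, 6.21 and 6.75 CPM in CP+siNC and at 3.85, 4.35 and 4.06 CPM in CP+siNAT10 (log2 fold change -0.65, adjusted p = 2.41e-05). MIR4435-2HG rose, with a log2 fold change of 0.35 (adjusted p = 5.02e-05), or 0.20 with offsets for gene length (adjusted p = 0.0143). It shares bases with BCL2L11 on the opposite strand, whose row held 88.7% of its count and had a log2 fold change of 0.30 (adjusted p = 0.0012), so their reads may not have been kept apart. MIR302CHG was at 96.1, 93.6 and 94.8 CPM in CP+siNC and at 106, 109 and 112 CPM in CP+siNAT10 (log2 fold change 0.21, adjusted p = 2.79e-05). It lies within LARP7 on the opposite strand, whose row held 210% of its count and had a log2 fold change of 0.17 (adjusted p = 0.000189), and without strand in the counting the reads of both cannot be told apart. MIRLET7A1HG, chosen after its values were seen, had a log2 fold change of -0.28 (adjusted p = 0.00199).

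From each of these hosts mature miRNAs of 1 arm are shown, with the seed, bases 2 to 8, in capitals and with those that share a seed next to each other, to give examples of the guides such hairpins can supply. The opposite arms, some of which also share seeds, and miR-367 of MIR302CHG are not shown. The sequences are from RefSeq on GRCh38.p14.
miR-34a-5p in MIR34AHG, chr1:9151735-9151756, - strand: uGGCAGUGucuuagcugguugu
miR-4435 in MIR4435-2HG, chr2:111321061-111321082, - strand: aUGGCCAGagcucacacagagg
miR-302a-3p in MIR302CHG, chr4:112648186-112648208, - strand: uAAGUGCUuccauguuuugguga
miR-302b-3p in MIR302CHG, chr4:112648489-112648511, - strand: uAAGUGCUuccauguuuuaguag
miR-302c-3p in MIR302CHG, chr4:112648366-112648388, - strand: uAAGUGCUuccauguuucagugg
miR-302d-3p in MIR302CHG, chr4:112648006-112648028, - strand: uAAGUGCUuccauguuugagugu
let-7a-5p in MIRLET7A1HG, chr9:94175962-94175983, + strand: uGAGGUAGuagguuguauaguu
let-7f-5p in MIRLET7A1HG, chr9:94176353-94176374, + strand: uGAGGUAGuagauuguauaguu
let-7d-5p in MIRLET7A1HG, chr9:94178841-94178862, + strand: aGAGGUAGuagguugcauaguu
The 4 miR-302 guides share the seed AAGUGCU and the 3 let-7 guides share GAGGUAG. The rows of the hosts with these seeds had fold changes of opposite sign, MIR302CHG higher and MIRLET7A1HG lower. With the overlap just given, the reads of the MIR302CHG row may be those of LARP7. Over the 6 libraries the rows of MIR302A, MIR302B, MIR302C and MIR302D held 1, 5, 4 and 8 counts, against 13117 in that of MIR302CHG.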

How the data were processed

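Raw counts per gene were deposited for 6 libraries and were used as deposited. The submitters' processing notes name Trimmomatic 0.36, STAR 2.5.3a, featureCounts of Subread 1.5.1, edgeR 3.12.1 and GRCh38. The kit adds molecular identifiers so that duplicate reads can be corrected for. Whether that was done before counting, and whether strand was used, are not given in the sources used here, and copies left unmerged would count as separate reads. The software was edgeR 4.0.16 and limma 3.58.1, run under R 4.3.3. Genes were kept by filterByExpr (minimum count 10, minimum total 15), library sizes were scaled by TMM, and CP+siNAT10 was compared with CP+siNC by edgeR's quasi-likelihood test without a block, with Benjamini-Hochberg adjustment over all 19874 tested genes. Replicates were compared pairwise, and the chi-square per gene was between 1.74 and 2.52 within groups and between 18.4 and 22.5 across groups. An exact permutation test of 3 against 3 libraries has a smallest p of 0.1, and the adjusted p of a gene therefore depends on the model over all genes. The programs were tested on simulated counts. The members and gene lists were chosen with earlier results of these data known. The text names all members, NAT10, the paralogs and partners, DDX5, DDX17, and in every other list up to 3 genes with the smallest p among called genes at or above a mean of 5 CPM whose groups do not overlap. A gene that this rule names is not reported here. Alternatives were RLE, upper quartile and library size scaling, other filters, DESeq2 1.42.0, limma-voom, glmTreat, length offsets, a replicate block and leaving out each library. Sequences and plots were handled in Python 3.11.15 with pandas 2.3.3 and matplotlib 3.10.9.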

Additional observations from a re-analysis of the deposited data

How the results depend on the processing

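The count of 8 members called was 8 with RLE or upper quartile scaling, the stricter filter and limma-voom. It was 9 with library size scaling, where DGCR8 was added, and 7 without a filter, where AGO4 was lost. With offsets for gene length it was 8, with AGO2 in and AGO4 out. Of all tested genes 44.1% were called with RLE or upper quartile scaling, 47.4% with the stricter filter and 43.8% with limma-voom. The share was 44.5% with library size scaling, 43% with length offsets and 19.6% of 43353 genes without a filter. DESeq2 called 5 members, without TARBP2, AGO3 and AGO4, and 6692 of all tested genes, and glmTreat against a fold change of 1.2 called 1. The same threshold lowered the count of all tested genes from 8771 to 2910 and that of the pathway lists from 67 to 18, which follows from its stricter limit. For the other counts that moved, the cause was not tested. Leaving out a library in turn called between 6 and 8 members, between 7822 and 8168 of all tested genes and between 59 and 64 genes of the pathway lists. In these fits between 20213 and 20458 genes were tested, and the called share was between 38.4% and 40%. Among the members, NAT10 and the genes named by rule, no called gene changed direction under these settings; genes chosen after their values were seen were not run. Offsets for gene length moved the log2 fold changes of DICER1, AGO3, TNRC6B, PRKRA, DDX17, ADAR and MIR4435-2HG by over 1.5 times, and the calls of these genes held. Library size scaling gave 5050 higher and 3786 lower genes, against 4331 and 4440.

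With the replicate number as a replicate block, 8 members, 8526 tested genes (42.9%) and 67 genes of the pathway lists were called. The deviations of libraries with the same number correlated at -0.0423, 0.0106 and -0.143, and not every library correlated best with its own number, so the numbers were not taken as pairs.

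Without division by gene length AGO4 made up 9.99% of the argonaute sum in CP+siNC, against 19.03% by RPKM. The members with few counts had the widest errors, AGO4 and AGO3 first.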

Other observations

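Further genes of the lists, chosen after their values were seen, changed by more than most members. The decapping enhancer EDC3 rose from 12.2 to 18.4 CPM, by 0.59 on the log2 scale (adjusted p = 6.93e-08), while the decapping enzyme DCP2 fell from 55.3 to 40.7 CPM, with a log2 fold change of -0.44 (adjusted p = 4.6e-09). PABPC1, the poly(A)-binding protein, fell with a log2 fold change of -0.27 (adjusted p = 1.4e-07), and its paralog PABPC4 rose with one of 0.24 (adjusted p = 1.82e-06). DIS3L2, the exonuclease of uridylated precursors, was low, at 1.26 CPM in CP+siNC and 2.32 CPM in CP+siNAT10, with a log2 fold change of 0.88 (adjusted p = 0.000404). Among the miRNA host genes, 3 passed a log2 fold change of 1 in size, all of them at low levels. MIR100HG went from 0.888 to 1.94 CPM (log2 fold change 1.12), MIR3142HG from 0.969 to 0.271 CPM (-1.86) and MIR4422HG from 1.02 to 0.498 CPM (-1.07). Each adjusted p is that of the quasi-likelihood test of edgeR, adjusted after Benjamini-Hochberg.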
